A study of Mus musculus with 66 samples.

Results

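The transcripts described here encode core proteins of pre-mRNA splicing and of nuclear RNA packaging, measured in the medial prefrontal cortex of mice 4 hours after ethanol or saline. Members were all gene symbols that begin with Srsf (or the older Sfrs), Hnrn, Sf3, Snrp or Prpf, except Snrpn, each represented by its brightest probe set. There were 58 members among 13196 genes tested: 10 SR proteins, 19 hnRNP proteins, 9 SF3 proteins, 8 snRNP proteins and 12 Prpf factors. All 58 matching symbols passed the filter on dim probe sets, so no member was left out for a low level.

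Introns are removed by the spliceosome, which is assembled from small nuclear ribonucleoprotein particles (snRNPs) that recognise splice sites. SF3 proteins are subunits of the U2 snRNP that hold it at the branch point, and many Prpf factors belong to the U4/U6.U5 tri-snRNP or to the complexes that activate it. SR proteins bind exonic enhancers and promote the use of nearby splice sites, while hnRNP proteins coat nascent transcripts and often oppose them, so that the balance of these families shapes alternative splicing, which is extensive in brain.

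The study measured 66 Affymetrix arrays, each holding RNA pooled from 4 to 5 male mice of 10 to 12 weeks. Ethanol-treated mice received 1.8 g/kg intraperitoneally and the others saline, and all of them, the saline groups included, went through 15 minutes of restraint and 10 minutes in a light-dark chamber. The groups were ethanol DBA/2J, ethanol C57BL6/J, saline DBA/2J and saline C57BL6/J with 3 arrays each, and 27 BXD strains with 1 ethanol and 1 saline array each. BXD strains are recombinant inbred lines bred from C57BL6/J and DBA/2J, so each strain carries a fixed mosaic of the 2 progenitor genomes.

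Values were log2 expression levels made by RMA, a procedure that gives all arrays nearly the same distribution, so a level is relative to the other transcripts of its array. A difference of 1 is a factor of 2. Levels of different probe sets are not set against each other below. In a bulk tissue sample, fewer cells of a type and less RNA per cell cannot be told apart. The fit, the adjusted p values (Benjamini-Hochberg over all 13196 genes) and the call at an adjusted p below 0.05 are limma's throughout. Saline DBA/2J replicate 1 differed from the other arrays of its group. Its log2 values had an SD of 2.07, where saline DBA/2J replicates 2 and 3 each had 2.13. It also had the highest score of the 66 arrays on the first principal component. The mean of the 58 members on it was 9.17, against 9.28 and 9.26 on saline DBA/2J replicates 2 and 3, so the counts of the comparisons that use it are also given without it. That choice was made after the values were seen. Both arrays of BXD38 lay near it on that component, with ranks of 4 for ethanol and 2 for saline. The saline array of BXD14 lay between those of BXD38, and the SD of its log2 values, 2.06, was the lowest of the 66 arrays. Of the cell type markers, 11 of 12 neuron and 8 of 8 interneuron markers passed the level filter, and so did 10 of 12 myelin, 10 of 11 microglia and 7 of 10 striatal markers.

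Promoters are shown for the members on which the strain results turn: Prpf31 and Snrpa1, with the largest progenitor differences in each direction, and Snrpc, with the most repeatable strain level. Each window runs from 250 bases before to 50 bases after an annotated start (RefSeq, GRCm38.p6), 5′ to 3′ on the gene's strand, and capitals mark a motif found by search. The windows lie at chr7:3629735-3630034 for Prpf31, chr7:66060086-66060385 for Snrpa1 and chr17:27839837-27840136 for Snrpc, all on the plus strand.
Prpf31: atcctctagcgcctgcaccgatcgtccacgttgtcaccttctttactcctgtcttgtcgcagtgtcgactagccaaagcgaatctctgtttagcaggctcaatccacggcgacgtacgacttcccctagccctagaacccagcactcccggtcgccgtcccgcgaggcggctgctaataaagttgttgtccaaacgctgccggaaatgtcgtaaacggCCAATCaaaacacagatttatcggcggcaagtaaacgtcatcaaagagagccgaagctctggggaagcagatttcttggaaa
Snrpa1: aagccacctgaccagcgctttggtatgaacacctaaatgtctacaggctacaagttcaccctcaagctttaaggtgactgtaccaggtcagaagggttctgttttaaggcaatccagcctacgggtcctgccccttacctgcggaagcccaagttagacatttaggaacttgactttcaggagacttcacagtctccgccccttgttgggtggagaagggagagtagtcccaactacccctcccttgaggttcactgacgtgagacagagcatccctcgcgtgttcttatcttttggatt
Snrpc: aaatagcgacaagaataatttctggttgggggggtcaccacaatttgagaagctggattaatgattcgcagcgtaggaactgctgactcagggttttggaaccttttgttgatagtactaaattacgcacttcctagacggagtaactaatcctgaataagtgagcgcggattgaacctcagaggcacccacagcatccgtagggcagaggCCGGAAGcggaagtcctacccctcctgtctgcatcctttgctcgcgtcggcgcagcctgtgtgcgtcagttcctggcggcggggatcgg

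Of the 58 members, 52 had an entry, with 68 windows in all. Both strands were searched for 6 motifs, each counted on its own. The ETS family was searched by CCGGAAG and the Sp and KLF family by GGGCGGGG. The inverted CCAAT box was searched by GATTGG, whose reverse complement stands in the Prpf31 window, and the TATA box by TATAAA. Longer motifs of NRF1 and YY1 were searched too. The ETS letters stood in 35.3% of the members' windows and in 8.86% of all 32851 windows of the same length. The Sp and KLF letters stood in 39.7% of the members' windows and 17.6% of all windows, and the CCAAT letters in 33.8% and 16.1%. The TATA letters were less frequent among the members, in 7.35% of their windows against 13.6% of all. The NRF1 letters stood in 1.47% of the members' windows and 0.971% of all, and the YY1 letters in 1.47% and 0.633%. The members' windows had a median GC content of 60.3%, against 52.7% for all windows, and the part of base composition in these shares was not tested. Of the printed windows, Prpf31 holds the CCAAT letters, Snrpc the ETS letters and Snrpa1 none of the 6 motifs.

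The first comparison asked how the family responded to ethanol in the BXD strains, with each strain's ethanol array set against its own saline array. None of the 58 members was called in either direction by limma, and an unadjusted p below 0.05 was found for 1 of them. Among all genes, 0.00758% were called higher and 0% lower, while the unadjusted p was below 0.05 for 4.93%. That member was Srsf6, an SR protein. Its 27 ethanol arrays had a lowest level of 9.23, a median of 9.44 and a highest of 9.77, against a lowest of 9.37, a median of 9.47 and a highest of 9.83 on the 27 saline arrays. The groups overlapped over most of their range, but the ethanol array was the lower one in 20 of 27 strains. The paired difference of Srsf6 was -0.087 (SE 0.022, unadjusted p = 0.000452, adjusted p = 0.366), and its adjusted p ranged from 0.0618 to 1 over the alternatives. Its other 3 probe sets had differences of -0.0095, -0.034 and 0.020.

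Averaged over the 27 strains, the ethanol differences of this family on the brightest probe sets were small. The largest in size was 0.098, for Hnrnpab, and the median size was 0.019. Differences in single strains, with 1 array per treatment, were larger, such as 0.79 for Snrpa1 in BXD14 and -0.61 for Snrpe in BXD18. As described above, the saline array of BXD14 had the lowest SD of all arrays. For 56 of 58 members the 95% interval of the mean difference lay within 0.2 of 0 on the log2 scale. The exceptions were Hnrnpab, a packaging protein whose interval reached 0.39, and Hnrnpl, a regulator of exon skipping, whose interval reached -0.22. The signs were mixed, 25 positive and 33 negative, with a median of -0.0065, and the median of all genes was -0.010. By class, 2 of 10 SR proteins, 15 of 19 hnRNP proteins, 3 of 9 SF3 proteins, 2 of 8 snRNP proteins and 3 of 12 Prpf factors had a positive difference. Of all genes 37.6% had one.

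After Srsf6 the smallest p values belonged to 4 members that were not called. Srsf4, an SR protein, had a difference of -0.049 (SE 0.025) and was lower after ethanol in 18 of 27 strains. Prpf40b, a homolog of a yeast U1 snRNP protein, had a difference of -0.067 and was also lower in 18 strains. Snrpg, a subunit of the Sm ring shared by most snRNPs, had a difference of -0.064, and Hnrnph2, a G-tract-binding hnRNP, one of 0.052. The plot of paired differences shows these values beside the other members.

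**Figure D1:**
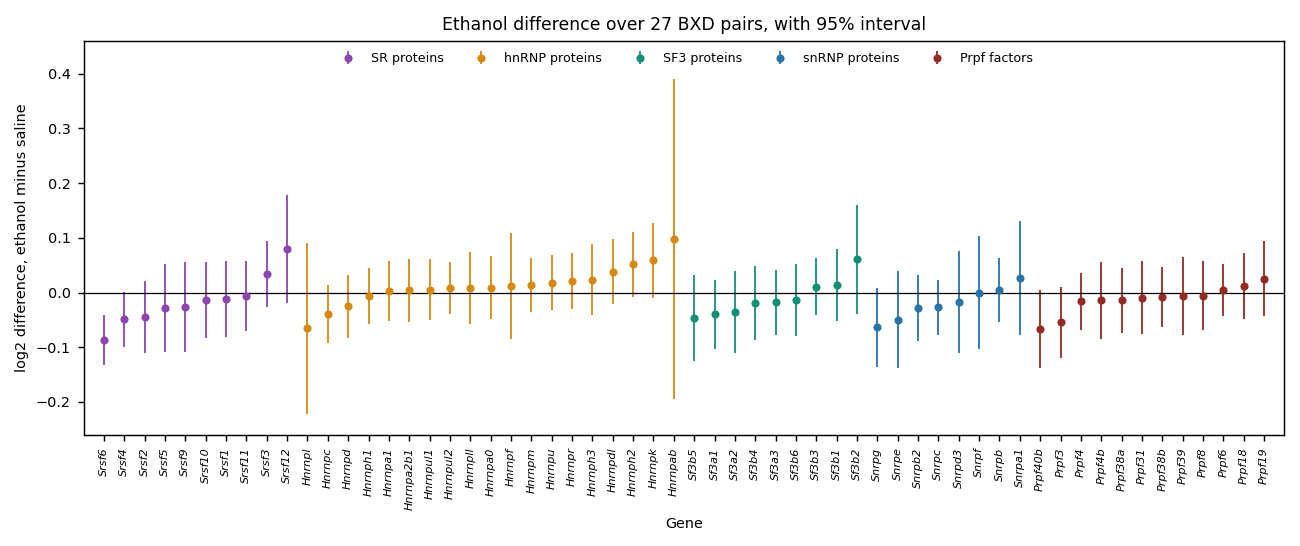
Ethanol minus saline difference of each of the 58 members over the 27 BXD pairs (y axis, log2; x axis, genes by class), with limma's 95% interval as a bar. All points lie within 0.1 of 0, and Hnrnpab and Hnrnpl have the widest intervals.

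The wide interval of Hnrnpab came with a probe set that varied within strains. Across strains its ethanol minus saline difference ran between -1.35 in BXD33 and 1.75 in BXD28. The SD of its level was 0.53 over the 27 ethanol arrays and 0.54 over the 27 saline arrays. Of its 4 other probe sets, 3 had SDs of 0.076 to 0.12 in both BXD groups, and the last, 1448144_at, had 0.24 and 0.23. The intraclass correlation of Hnrnpab, which compares the ethanol and saline arrays of a strain, was -0.24, the lowest of the 58. Why the probe sets of Hnrnpab differed in spread was not tested.

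In C57BL6/J the same question was asked with 3 ethanol and 3 saline arrays, and 0 members were called by limma. Of all genes, 0.00758% were called higher and 0% lower. An unadjusted p below 0.05 was found for 4 members, all lower after ethanol, and for 4.98% of all genes. Snrpd3, a subunit of the Sm ring, had levels of 8.91, 9.04 and 8.72 after ethanol, against 9.10, 9.22 and 9.30 after saline. Sf3a3, a subunit of the U2 snRNP, had 7.94, 7.74 and 7.88 after ethanol, against 8.10, 8.22 and 8.02 after saline. In both genes every ethanol array lay below every saline array. Their differences were -0.32 (SE 0.11) for Snrpd3 and -0.26 (SE 0.092) for Sf3a3, both at an adjusted p of 0.922. Snrpb2, a U2 snRNP protein, had a difference of -0.20, Srsf4 one of -0.17 and Prpf3, a tri-snRNP protein, one of -0.19.

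Groups of arrays that do not overlap were found in C57BL6/J for 0 members higher after ethanol, where 3.78% of all genes were, and for 5 members lower, where 6.07% of all genes were. Overall 14 members had a positive and 44 a negative difference, with a median of -0.056, against -0.022 for all genes. A negative difference was found for 8 of 8 snRNP proteins, 11 of 12 Prpf factors, 8 of 9 SF3 proteins, 12 of 19 hnRNP proteins and 5 of 10 SR proteins, and 41.3% of all genes had a positive one. Markers of other cell types moved beside them without being called: 10 of 10 myelin markers were negative (median -0.16, 3 at an unadjusted p below 0.05) and 9 of 10 meningeal markers positive (median 0.16, 2 at such a p). The part of either in the members' values was not tested.

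In DBA/2J 0 members were called after ethanol by limma, as were 0% of all genes in each direction. Here 14 members had an unadjusted p below 0.05, 13 of them higher after ethanol, where 12.5% of all genes had one. Snrpa1, a U2 snRNP protein that pairs with Snrpb2, had levels of 8.21, 8.16 and 8.31 after ethanol, against 7.50, 7.95 and 7.93 after saline. All ethanol arrays lay above all saline arrays, and the lowest of the 6 was saline replicate 1. The difference of Snrpa1 was 0.43 (SE 0.11, adjusted p = 0.167), and 0.29 (adjusted p = 0.593) without saline replicate 1. Hnrnpf, a G-tract-binding hnRNP, had 8.90, 8.93 and 9.04 after ethanol, against 8.55, 8.54 and 8.51 after saline, again with no overlap. Its difference was 0.43 (SE 0.13, adjusted p = 0.226), and 0.44 without saline replicate 1. One of its other 3 probe sets, 1423382_a_at, had a difference of -0.056.

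Hnrnph2, a close relative of Hnrnpf, had 10.23, 10.38 and 10.19 after ethanol, against 9.72, 10.17 and 9.82 after saline. Its difference was 0.36 (SE 0.11), that of Snrpe, an Sm ring subunit, 0.39 (SE 0.12), and that of Srsf10, an SR protein regulated by phosphorylation, 0.37 (SE 0.12). Without saline replicate 1 these were 0.27, 0.29 and 0.25. None of the 3 was called, with adjusted p values of 0.234 to 0.258.

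Arrays did not overlap for 11 members higher and 4 members lower after ethanol in DBA/2J, and the same held for 9.66% and 8.22% of all genes. The members' median difference was 0.028, against 0.0029 for all genes, with 36 positive and 22 negative, where 50.9% of all genes were positive. Without saline replicate 1, 6 members had an unadjusted p below 0.05, 5 of them higher, where 7.06% of all genes had one, and the median was -0.0082. The count of members at an unadjusted p below 0.05 in DBA/2J was thus lower in that fit, which also had fewer saline arrays. Such counts were not made with other arrays left out.

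Averaged over both progenitors, 0 members were called by limma, where 0.0379% of all genes were called higher and 0.00758% lower. The unadjusted p was below 0.05 for 8 members, 6 of them higher and the rest lower, and for 8.84% of all genes. Without saline DBA/2J replicate 1 there were 5 such members, 2 higher and 3 lower, and 8.21% of all genes, so the balance of directions did not hold in that fit. Srsf4 had the smallest p, with a difference of -0.16 (SE 0.057, adjusted p = 0.466), and its levels after ethanol were 8.99, 8.92 and 8.97 in DBA/2J and 8.94, 8.87 and 8.94 in C57BL6/J. After saline they were 9.16, 8.99 and 9.19 in DBA/2J and 8.98, 9.15 and 9.14 in C57BL6/J. The differences of Hnrnpf, Srsf1 and Srsf12, the last 2 being SR proteins, were 0.25, 0.25 and 0.33, and that of Hnrnph2 was 0.21. The direction was not shared by all probe sets, since Hnrnpf had -0.084 on 1423382_a_at and on 1450963_at, and Srsf1 had -0.032 on 1430982_at and -0.061 on 1452430_s_at.

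Whether the response to ethanol differed between the strains was tested as an interaction, and 0 members were called by limma, as were 0% of all genes in each direction. There were 6 members with an unadjusted p below 0.05, all with a more positive response in DBA/2J, where 8.31% of all genes had such a p. They were Snrpa1 at 0.52 (SE 0.15), Snrpe at 0.49 (SE 0.17), Prpf39 at 0.34, Hnrnpr at 0.33, Hnrnpa2b1 at 0.32 and Snrpb2 at 0.27, with adjusted p values of 0.563 to 0.587. The interaction was positive for 45 of 58 members and for 8 of 8 snRNP proteins, with a median of 0.14, against 0.029 and 57.2% positive for all genes. Without saline DBA/2J replicate 1 the median was 0.099, against 0.016 for all genes. In that fit 3 members had an unadjusted p below 0.05, where 4.88% of all genes had one. The myelin markers had a positive interaction in 9 of 10 cases (median 0.32, 4 at an unadjusted p below 0.05) and the meningeal markers a negative one in 10 of 10 (median -0.22, 1 at such a p), none of them called. Their part in the members' interaction was not tested. One of the other probe sets of Hnrnpr, 1438807_at, had an interaction of -0.12.

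The comparison of the progenitors after saline asked how the strains differ without ethanol, and it shares the saline arrays with the ethanol comparisons above. Of the 58 members 7 were called, 1 higher and 6 lower in DBA/2J, where 4.07% of all genes were called higher and 6.27% lower. The member higher in DBA/2J was Prpf31, a tri-snRNP factor, and those lower were Snrpa1, Snrpb2, Srsf10, Srsf3, Hnrnph2 and Hnrnpf. At an unadjusted p below 0.05 there were 18 members, 16 of them lower, and 25.2% of all genes. Saline arrays did not overlap for 3 members higher and 15 lower in DBA/2J, against 15.8% and 14.6% of all genes. The members' median was -0.055 and that of all genes 0.021.

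Among the SR proteins, Srsf10 had saline levels of 6.96, 7.38 and 7.25 in DBA/2J, against 7.85, 7.54 and 7.81 in C57BL6/J, with no overlap. Its difference was -0.53 (SE 0.12, adjusted p = 0.00962), and all of its 4 probe sets were lower in DBA/2J. Srsf3, which also regulates export and polyadenylation, had 9.97, 10.04 and 9.99 in DBA/2J, against 10.33, 10.21 and 10.21 in C57BL6/J. Its difference was smaller, -0.26 (SE 0.075, adjusted p = 0.0399), but its arrays were also separate. The call of Srsf3 was lost in 6 of 6 fits with 1 array left out, at adjusted p values of 0.0624 to 0.16. Of its 6 probe sets, all 6 were lower in DBA/2J, and the 1 called when probe sets were tested separately was 1416151_at (-0.42) and not the brightest.

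Among the hnRNP proteins, Hnrnph2 had saline levels of 9.72, 10.17 and 9.82 in DBA/2J, against 10.44, 10.29 and 10.31 in C57BL6/J. The difference was -0.45 (SE 0.11, adjusted p = 0.0186). Hnrnpf had 8.55, 8.54 and 8.51 in DBA/2J, against 9.25, 8.71 and 8.91 in C57BL6/J, a difference of -0.43 (SE 0.13, adjusted p = 0.046). The DBA/2J arrays of Hnrnpf were close together and the C57BL6/J arrays spread, and the difference was -0.28 (adjusted p = 0.217) without saline C57BL6/J replicate 1. Its call was lost in 5 of 6 fits with 1 array left out, and 0 of its 4 probe sets were called when tested separately, though all 4 were lower in DBA/2J.

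Among the snRNP proteins, Snrpa1 had 7.50, 7.95 and 7.93 in saline DBA/2J, against 8.44, 8.46 and 8.44 in saline C57BL6/J. This was the largest difference of a member to the lower side, -0.66 (SE 0.11, adjusted p = 0.000946), equal to a level 1.58-fold lower in DBA/2J. Its 3 probe sets were all called, with differences of -0.39 to -0.66. Snrpb2, its partner in the U2 snRNP, had 8.79, 8.97 and 8.93 in DBA/2J, against 9.21, 9.22 and 9.16 in C57BL6/J, a difference of -0.30 (SE 0.080, adjusted p = 0.0251). Its 3 probe sets were also all called, with differences of -0.30 to -0.83. The -0.83 was on 1452131_at, a dim probe set whose mean of 5.37 lay near the filter at 5.10. On 1452422_a_at the difference was -0.34 (adjusted p = 0.0481). Of the remaining snRNP proteins, Snrpc, Snrpd3 and Snrpe had differences of -0.22, -0.27 and -0.26 and were not called.

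Prpf31, mutated in a dominant human retinitis pigmentosa, had saline levels of 7.90, 8.03 and 8.20 in DBA/2J, against 7.46, 7.49 and 7.65 in C57BL6/J, with no overlap. Its difference was 0.51 (SE 0.088, adjusted p = 0.00126), a level 1.42-fold higher in DBA/2J. The plot of the called members gives every array.

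**Figure D2:**
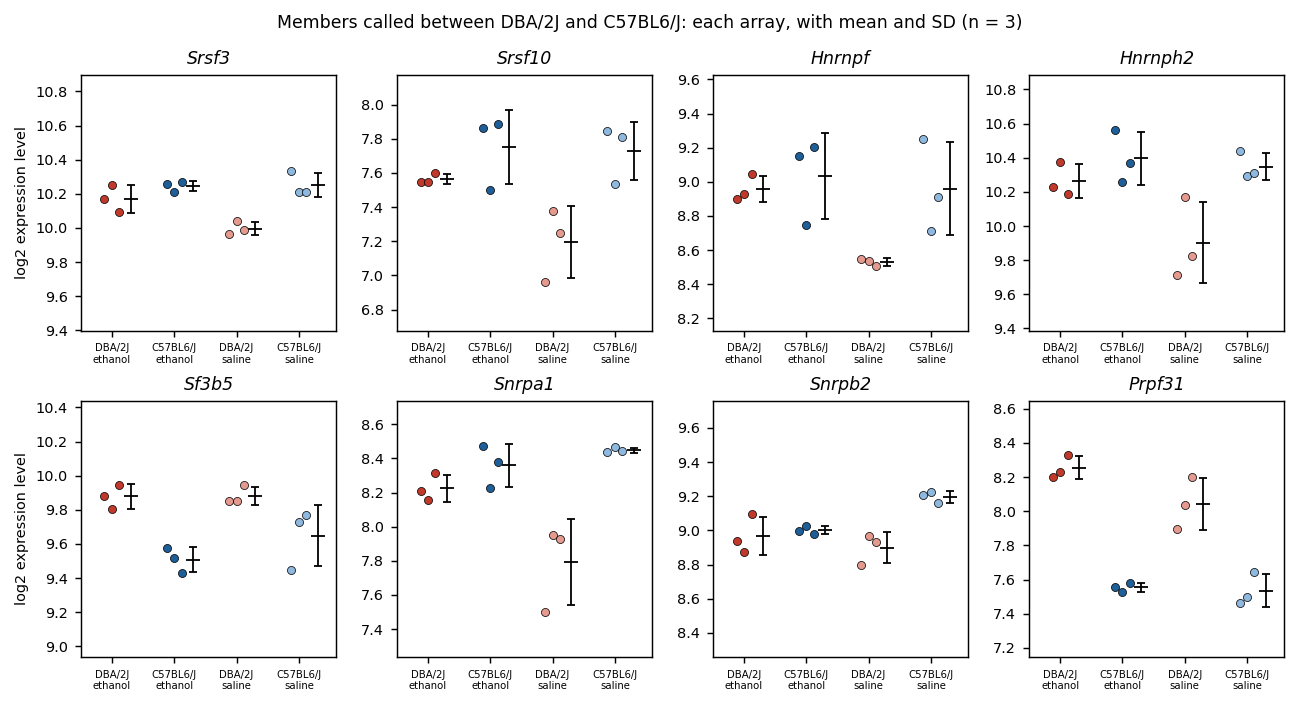
Level of the 8 members called between DBA/2J and C57BL6/J on each of the 12 progenitor arrays (points; y axis, log2, of equal length in all panels), with the mean and SD of each group (n = 3) as a bar. Prpf31 was higher in DBA/2J under both treatments and Sf3b5 was called after ethanol (0.37) and not after saline (0.23), while the other 6 were lower in saline DBA/2J.

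Without saline DBA/2J replicate 1, 2 members were called: Prpf31 at 0.58 (adjusted p = 0.000728) and Snrpa1 at -0.51 (adjusted p = 0.0024). The other 5 kept a negative difference, of -0.24 to -0.44, at adjusted p values of 0.0508 to 0.114. The count of called members was also 2 without saline C57BL6/J replicate 1 and was 4 without saline DBA/2J replicate 3. These fits had fewer arrays, and their shares of all genes called are not given here. Without saline DBA/2J replicate 1, 11 members had an unadjusted p below 0.05, 8 of them lower, where 19.7% of all genes had one. Markers of another cell type moved with this comparison: 8 of 10 myelin and oligodendrocyte markers were called lower in DBA/2J, with a mean over the list of 7.68 to 8.00 on saline DBA/2J arrays, against 8.41 to 8.50 on saline C57BL6/J arrays. Of the microglia markers 3 of 10 were called lower. The part of either in the members' differences was not tested.

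After ethanol the same strains were compared on the other 6 arrays. Of the 58 members 2 were called, both higher in DBA/2J, where 4.34% of all genes were called higher and 2.89% lower. Prpf31 had levels of 8.20, 8.23 and 8.33 in ethanol DBA/2J, against 7.56, 7.53 and 7.58 in ethanol C57BL6/J. The groups were far apart relative to their spread, and the difference was 0.70 (SE 0.088, adjusted p = 6.86e-05), a level 1.62-fold higher in DBA/2J. Sf3b5, a small subunit of the SF3b complex, had 9.88, 9.80 and 9.95 in DBA/2J, against 9.57, 9.52 and 9.43 in C57BL6/J, a difference of 0.37 (SE 0.091, adjusted p = 0.019). After saline its difference was 0.23 (SE 0.091, adjusted p = 0.124), and the interaction, which tests the change, was 0.14 (adjusted p = 0.757). Without ethanol C57BL6/J replicate 3 the difference of Sf3b5 was 0.33 (adjusted p = 0.0924) and it was no longer called, and the same held without ethanol DBA/2J replicate 1 (0.37, adjusted p = 0.0624) or 3 (0.34, adjusted p = 0.0883).

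Prpf31 was the 1 member called after both treatments. The 6 members lower in saline DBA/2J had ethanol differences between -0.19 for Srsf10 and -0.032 for Snrpb2, none of them called, and the interaction gives the test of that change, which none passed. At an unadjusted p below 0.05 there were 10 members after ethanol, 8 of them higher in DBA/2J, and 20% of all genes. Ethanol arrays did not overlap for 6 members higher and 2 lower in DBA/2J, against 16.2% and 8.93% of all genes. The members' median was 0.017 and that of all genes 0.032. Of the myelin markers 4 of 10 were called lower in ethanol DBA/2J, with list means of 7.88 to 7.97, against 8.15 to 8.36 in ethanol C57BL6/J, and their part was not tested.

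The BXD panel adds a replicated reading of strain, since a strain's ethanol and saline arrays come from different mice of 1 genotype. A strain effect was called for 16 of 58 members, 27.6%, where 20.4% of all genes were called. The median intraclass correlation was 0.16 for the members and 0.18 for all genes. By class the calls were 5 of 10 SR proteins, 4 of 19 hnRNP proteins, 0 of 9 SF3 proteins, 4 of 8 snRNP proteins and 3 of 12 Prpf factors, with 0 SF3 proteins at an unadjusted p below 0.05 too. Across its alternatives the count of 16 ranged from 12 without BXD38 to 24 with a residual component in the fit. The share of all genes called with that component is not given here, so the 24 has no background beside it. BXD38 had the lowest strain mean for 19 of 58 members, where the next strain, BXD27, had it for 7. The mean of the members was 9.16 on its ethanol array and 9.19 on its saline array, against a median of 9.29 over the BXD arrays. Their log2 values had an SD of 2.07 on each, against a median of 2.12, and the part of this in the strain effects was not tested. Without BXD38 the members that lost the call were Hnrnph1, Hnrnph2, Prpf39 and Srsf12, and 16.8% of all genes were called.

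The highest intraclass correlation belonged to Snrpc, a U1 snRNP protein, at 0.74 (adjusted p = 0.00017). Its strain means ran from 8.98 in BXD28 to 9.44 in BXD18. Srsf6 followed at 0.69 (adjusted p = 0.00297), with strain means from 9.31 in BXD09 to 9.80 in BXD11. BXD11 lay above the next strain, BXD16, at 9.65, and without BXD11 the F of Srsf6 was 2.41 in place of 3.62 and the strain effect was not called (adjusted p = 0.0515). Its 3 other probe sets were not called either, with F values of 0.50 to 0.78.

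Prpf31 had an intraclass correlation of 0.68 (adjusted p = 0.000112), Hnrnpr and Hnrnpm both 0.66, Srsf10 0.56, Snrpb2 0.52 and Srsf3 0.52. Hnrnpr and Hnrnpm are hnRNP proteins, and their strain means spanned 9.74 to 10.24 and 7.97 to 8.42. The other called members were Hnrnph1, Srsf2, Prpf38b, Snrpa1, Hnrnph2, Snrpd3, Prpf39 and Srsf12. Of the 8 members called between the progenitors, 6 also had a called strain effect: Prpf31, Snrpa1, Snrpb2, Srsf10, Srsf3 and, except without BXD38, Hnrnph2. The same overlap was not counted over all genes, so the 6 are not shown to be more than other progenitor-called genes would give. The other 2 were Sf3b5, with an intraclass correlation of 0.23, and Hnrnpf, with -0.068. The myelin markers had a called strain effect in 10 of 10 cases, with list means on BXD arrays of 7.79 to 8.67 after ethanol and 7.74 to 8.81 after saline, and their part in the members' strain effects was not tested.

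**Figure D3:**
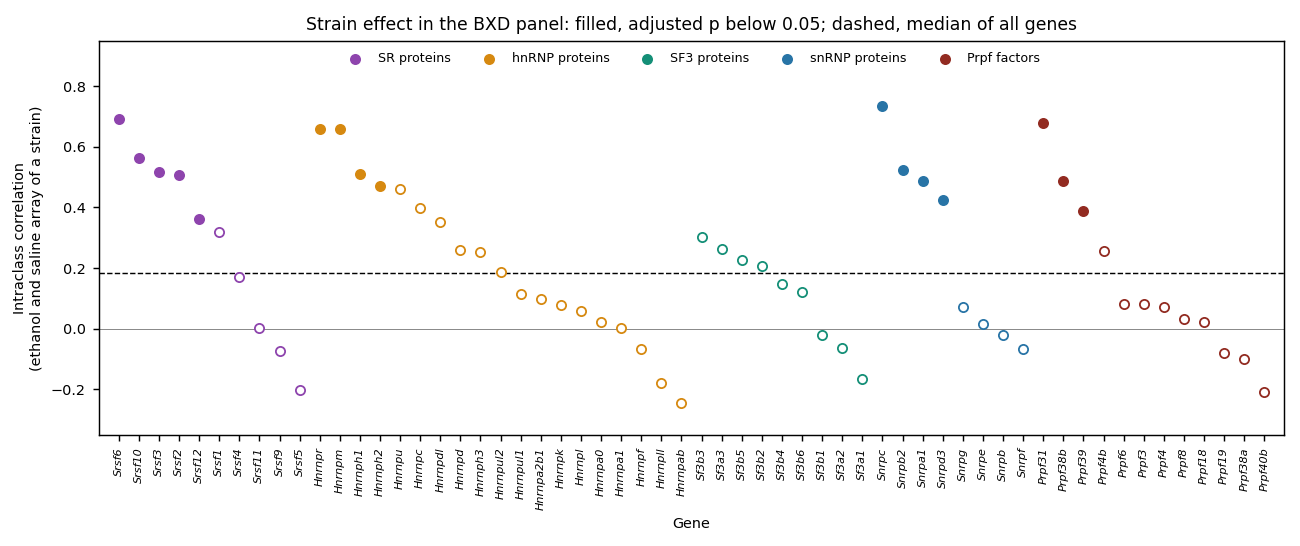
Intraclass correlation of the ethanol and saline arrays of a strain (y axis, no unit) for each of the 58 members (x axis, by class, highest first), over 27 BXD strains. Filled points were called at an adjusted p below 0.05, and the dashed line at 0.18 is the median of all genes. None of the SF3 proteins was called.

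Prpf31 showed a graded series of levels between its progenitors. The mean of its 6 DBA/2J arrays was 8.15 and that of its 6 C57BL6/J arrays 7.54, and 24 of 27 strain means lay between them. Of the strains 12 were nearer to DBA/2J and 15 nearer to C57BL6/J. The largest step between neighbouring strains was 0.15, between BXD20 and BXD12 at the low end, so the strains did not fall into separate sets. Snrpa1 had progenitor means of 8.01 in DBA/2J and 8.40 in C57BL6/J, and its strain means ran from 7.67 in BXD14 to 8.75 in BXD01, beyond both. In BXD14 the ethanol array of Snrpa1 lay 0.79 above the saline array, its largest such difference among the 27 strains. The next strain mean above BXD14 was 7.94. Of its strains 8 were nearer to DBA/2J and 19 nearer to C57BL6/J. For Hnrnph2 and Hnrnpf, 2 of 27 strains were nearer to DBA/2J.

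The 3 genes whose strain means were most like those of Prpf31 over the 27 strains all lie on its chromosome. They were Rdh13 (r = 0.79), Kptn (r = 0.79) and Tmc4 (r = -0.77), which lie 21, 210 and 3 genes away in the annotation. All correlations over strains are given as descriptions, since the genes share arrays and the strains share ancestry. Rdh13, a retinol dehydrogenase, had means of 7.13 ± 0.20 in ethanol DBA/2J and 6.35 ± 0.21 in ethanol C57BL6/J, against 7.11 ± 0.20 in saline DBA/2J and 6.54 ± 0.13 in saline C57BL6/J (SD, n = 3). The 6 nearest measured neighbours of Prpf31, Tmc4 among them, had correlations of -0.77 to 0.63 with it, those of the 2 closest being -0.31 for Tfpt and 0.14 for Cnot3.

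For Snrpc the most alike gene was Kcnj9, which encodes the channel subunit GIRK3 and lies on another chromosome, with r = -0.93. Strain means of Kcnj9 fell into 2 sets, 11 strains at 10.12 to 10.34 and 16 strains at 7.84 to 8.11. In the 11 strains Snrpc ran from 8.98 to 9.16 (median 9.06), and in the 16 strains from 9.23 to 9.44 (median 9.35), with no overlap. Within the sets the correlation was 0.025 in the 11 strains and -0.35 in the 16, so the overall value rests on the step between them. Kcnj9 averaged 10.15 ± 0.13 in ethanol DBA/2J and 7.89 ± 0.27 in ethanol C57BL6/J, against 10.27 ± 0.07 in saline DBA/2J and 8.14 ± 0.09 in saline C57BL6/J (SD, n = 3).

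Snrpc itself had levels of 9.01, 9.07 and 9.19 in ethanol DBA/2J, against 9.19, 9.33 and 9.34 in ethanol C57BL6/J, and 9.10, 9.21 and 9.19 in saline DBA/2J, against 9.29, 9.45 and 9.43 in saline C57BL6/J. The differences were -0.20 (adjusted p = 0.183) after ethanol and -0.22 (adjusted p = 0.0996) after saline, neither called. Next most like Snrpc were Tceal8 (r = 0.92) and Ufc1 (r = 0.92), and Ufc1 lies 31 genes from Kcnj9 on the chromosome of Kcnj9. The 6 nearest measured neighbours of Snrpc on its own chromosome had correlations of -0.37 to 0.25 with it.

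**Figure D4:**
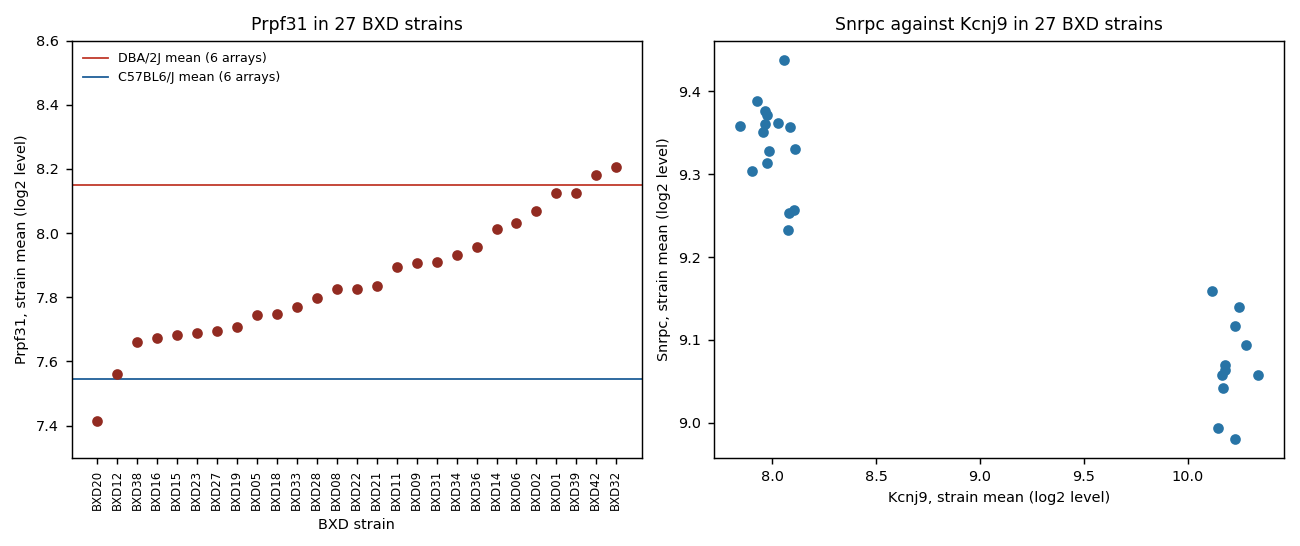
Left, strain means of Prpf31 in the 27 BXD strains in ascending order (points; y axis, log2 level), with lines at the DBA/2J mean (8.15) and the C57BL6/J mean (7.54). Right, strain means of Snrpc (y axis) against those of Kcnj9 (x axis), both in log2 levels, with 1 point per strain in 2 separate sets of 16 and 11 strains.

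For Srsf6 the most alike genes were Zdhhc8 (r = -0.87), Chordc1 (r = 0.84) and P4ha1 (r = 0.84). For Hnrnpr they were Hnrnpd (r = 0.79), itself a member, Gtf2a2 (r = 0.79) and Pwwp2a (r = 0.79), none on its chromosome. Between members, the highest correlations over strain means were those of Hnrnph2 with Hnrnpk (r = 0.84), Sf3a2 with Sf3b4 (r = 0.82) and Hnrnpa2b1 with Hnrnph2 (r = 0.82).

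Most members were measured by several probe sets, 154 in all and up to 7 per gene, and 17 members had 1. With probe sets tested separately, 18 of the 154 were called between the saline progenitors (10 members), where 9.16% of all probe sets were. After ethanol 7 were called (6 members), where 6.53% of all were, and 37 had a called BXD strain effect (23 members), where 17.7% of all had one. Over the 27 strains, 96 probe sets other than the brightest had a median correlation of 0.54 with the brightest of their gene, and 14 were below 0. Prpf31 was such a case: its second probe set, 1448633_at, had r = -0.29 with the first, a DBA/2J minus C57BL6/J difference of 0.10 after saline and one of -0.0063 after ethanol. The strain difference of Prpf31 thus rests on 1 of its 2 probe sets, 1453005_at. That of Sf3b5 likewise rests on 1437972_s_at, since its second probe set had a difference of 0.026 after ethanol.

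Some members differed between strains on probe sets that were not the brightest, which were chosen for description after their values were seen. Prpf19, a ubiquitin ligase that activates the spliceosome, had 4. On 1419839_x_at its levels were 9.46, 9.21 and 9.30 in ethanol DBA/2J, against 10.51, 10.65 and 10.49 in ethanol C57BL6/J. After saline they were 9.55, 9.27 and 9.46 in DBA/2J, against 10.59, 10.58 and 10.73 in C57BL6/J. The groups were more than 0.9 apart at their nearest arrays, and the differences were -1.23 (adjusted p = 5.85e-07) after ethanol and -1.20 (adjusted p = 6.33e-07) after saline. A second probe set, 1449635_at, gave -0.99 after ethanol and -0.85 after saline.

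The brightest probe set of Prpf19, 1456531_x_at, gave 0.13 after ethanol and -0.039 after saline and was not called. In the BXD strains the means on 1419839_x_at fell into 10 strains at 9.21 to 9.48 and 17 strains at 10.50 to 10.66. The split on 1449635_at was also 10 and 17, and both probe sets correlated at 0.99 over strains, against 0.10 and 0.081 with the brightest. The suffix x marks probe sets with probes that also match other transcripts, and why the probe sets of Prpf19 differed was not tested.

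**Figure D5:**
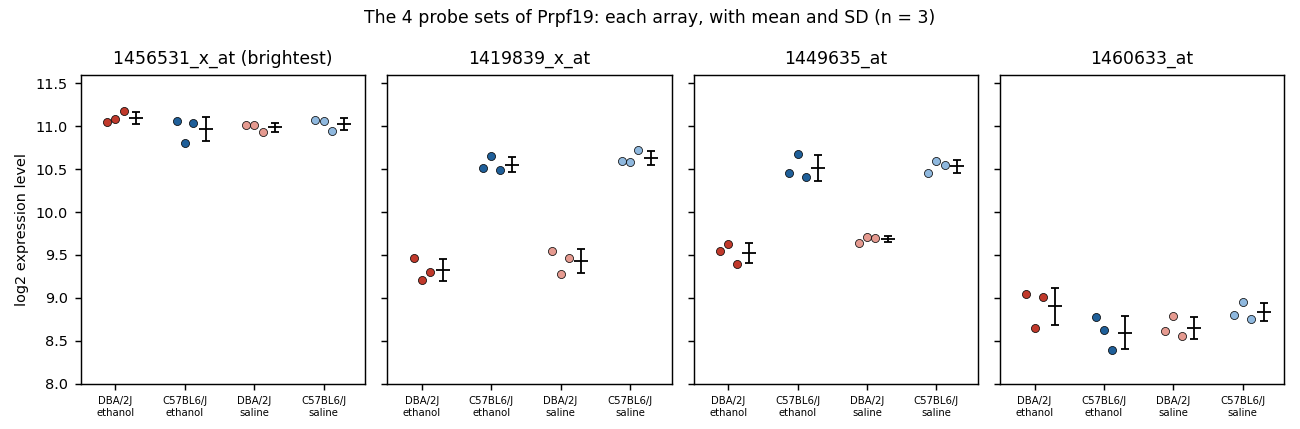
Levels of the 4 probe sets of Prpf19 on the 12 progenitor arrays (points; y axis, log2), with the mean and SD of each group (n = 3). On 1419839_x_at and 1449635_at all DBA/2J arrays lie below all C57BL6/J arrays under both treatments, and on the brightest probe set the strains overlap.

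Srsf2, an SR protein, showed the opposite direction on 1452439_s_at, with levels of 8.51, 8.63 and 8.50 in ethanol DBA/2J, against 7.93, 7.80 and 7.60 in ethanol C57BL6/J. The differences were 0.77 (adjusted p = 0.000212) after ethanol and 0.72 (adjusted p = 0.000393) after saline, and the brightest probe set gave 0.19 after ethanol and 0.027 after saline. Hnrnpab was lower in DBA/2J on 1448144_at, with differences of -0.54 after ethanol and -0.62 after saline. Srsf1 had a called difference on 1428100_at after saline, -0.58. In Snrpb2 the dim probe set 1452131_at, with a mean of 5.37, was called after both treatments. Its differences were -0.59 after ethanol and -0.83 after saline. In this fit the brightest probe set of Snrpb2 was called after saline (-0.30) and not after ethanol (-0.032).

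Other proteins that act with the spliceosome or bind RNA were described from a list of 125 genes, of which 116 were measured. Ethanol called 0 of them in the BXD panel and in each progenitor, by limma, with 9 in the BXD panel, 12 in DBA/2J and 7 in C57BL6/J at an unadjusted p below 0.05. These were 7.76%, 10.3% and 6.03% of the 116, against 4.93%, 12.5% and 4.98% of all genes. Between the saline progenitors 13 were called, 3 higher and 10 lower in DBA/2J. They made up 11.2% of the 116, where 4.07% of all genes were called higher and 6.27% lower. The 3 higher were Snrnp25, a protein of the minor spliceosome (0.31), and Gemin5 (0.33) and Gemin7 (0.37), which act in snRNP assembly. The 8 lower by the most were Taf15, Snrnp40, a U5 snRNP protein (-0.67), Clk4, a kinase of SR proteins (-0.59), Tra2a, an SR-related protein (-0.55), Dhx15, a helicase (-0.49), Khdrbs1 (-0.39), Rbm39 (-0.39) and Luc7l (-0.36). Taf15, an RNA-binding protein of the FET family, had the largest difference, -2.17 (SE 0.18). After ethanol 5 were called, with Taf15 at -2.27, Clk4 at -0.57, Gemin5 at 0.28, Snrnp25 at 0.50 and Srrm2, a large protein of nuclear speckles, at 0.69. They made up 4.31% of the 116, where 4.34% of all genes were called higher and 2.89% lower. A BXD strain effect was called for 15 of the 116, 12.9%, against 20.4% of all genes.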

How the data were processed

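The deposited values are log2 levels of 45037 probe sets on 66 arrays, computed by the authors with RMA in the affy package, according to the labels and per the submitters' processing notes, where no version was found. Probe sets were named from GEO's platform annotation, with symbols updated by Entrez ID through RefSeq's GRCm38.p6 annotation. Of them 34945 had 1 symbol, 932 several and 9160 none, and the last 2 kinds entered no test. Probe sets with a mean below the 40th percentile (18015, below log2 5.10) were removed, and each gene was read from its brightest probe set. Differences were tested two-sided with limma 3.58.1 (lmFit, eBayes) in R 4.3.3, with data.table (version 1.17.8) for reading. The BXD fit had strain as a block and 26 residual degrees of freedom; over 200 genes, 27 of 27 ethanol arrays were most like the saline array of the same strain. The 12 progenitor arrays shared 1 fit with 8 residual degrees of freedom. Strain effects in the BXD panel were tested by limma's F on the 26 coefficients of strain. The main BXD and progenitor fits were tested on simulated data, for BXD ethanol, the BXD strain effect, C57BL6/J ethanol and the saline progenitors. The alternatives were not. The highest correlation between 2 arrays was 0.998, and none was treated as a copy. Nothing in the labels says that replicate arrays are from separate cohorts beyond their pools, so p values of the progenitor comparisons measure the spread between pools. In the BXD fit the residual spread is that of the ethanol minus saline differences over strains. There the spread between pools and a response that differs by strain are not separated. The number of pools limits the precision. The batch of each array was not used here. Members and gene lists were chosen with earlier results of these data known. Members named with full values were up to 8 called in each direction, or the 5 with the smallest p where 0 were called, and the 8 called strain effects with the highest intraclass correlation; pattern partners were the 3 genes most correlated with each of the top 4. Probe set filters, normalizations, variance priors, a residual component, blocks and left-out arrays were tried as alternatives.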

Additional observations from a re-analysis of the deposited data

How the results depend on the processing

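Of the counts of called members, those of the ethanol comparisons were 0 under every alternative run, except that Snrpa1 was called higher in DBA/2J, 1 member, once a covariate for the leading residual component was added. Between the saline progenitors the count of 7 was 11 (1 higher, 10 lower) with all 66 arrays in 1 fit, and 2 to 5 with 1 array left out; it was 2 without saline C57BL6/J replicate 1 or saline DBA/2J replicate 1 and 4 without saline DBA/2J replicate 3. Between the ethanol progenitors the count of 2 was 6 (3 higher, 3 lower) with all probe sets tested separately, and 1 to 3 with 1 array left out; it was 1 without ethanol C57BL6/J replicate 3, ethanol DBA/2J replicate 1 or ethanol DBA/2J replicate 3. The BXD strain effect count ranged from 12 to 16 over the 27 strains left out in turn. Except where given above, shares of all genes called under these alternatives are not stated, so the counts show their range only. In the progenitors the replicate number did not pair arrays: correlations of same-numbered arrays ran from -0.23 to 0.26. With it as a replicate block the counts were 6 after saline, 2 after ethanol and 0 for the ethanol comparisons, and with no replicate block of strain in the BXD fit the ethanol count was 0. The sign of a named member turned in no left-out array, filter, normalization or prior run, but it turned on some of its other probe sets: Srsf6 on 1447898_s_at (BXD ethanol, 0.020), Snrpd3 on 1449629_s_at (C57BL6/J ethanol, 0.018), Hnrnpf on 1423382_a_at (DBA/2J ethanol, -0.056; mean of both progenitors, -0.084) and on 1450963_at (mean of both progenitors, -0.084), Srsf1 on 1430982_at and 1452430_s_at (mean of both progenitors, -0.032 and -0.061), Hnrnpr on 1438807_at (interaction, -0.12) and Prpf31 on 1448633_at (ethanol DBA/2J minus C57BL6/J, -0.0063). The cause was not tested. The 9 called progenitor differences lost the call in 22 of 54 fits with 1 array left out, Prpf31 and Snrpa1 in none. The 8 strain effects named with full values lost it in 1 of 216 fits with 1 strain left out. On other probe sets of the named members, 42 of 72 results stayed on their side of the threshold, 21 lost the call and 9 changed sign. Over all alternatives other than probe sets, Hnrnpf and Srsf3 lost their saline strain call in 8 and 10 of 15. With 3 arrays a group, a member that was not called is not shown to be unchanged.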
